A study of Homo sapiens with 12 samples.

Results

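The 7 genes described here encode plasminogen activators, their receptor and serpins. They were taken by symbol from a fixed list, which was chosen with earlier results of these data known. They are PLAU, PLAUR, PLAT, SERPINE2, SERPINB2, SERPINF1 and SERPINB6, and all 7 were found among the 38716 gene symbols of the deposited tables. Their mRNA was measured as RNA-seq reads over the 5′ UTR, CDS and 3′ UTR of a gene, and their ribosome-protected fragments (RPF) as Ribo-seq reads over the CDS alone. Senescent cells were compared with proliferating cells in both layers.

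The cells were IMR90, a widely distributed cell line of human fetal lung fibroblasts that is not immortalized, has a limited lifespan in culture and carried no engineered allele. Proliferating cultures (Pro) were compared with cultures passaged until they stopped dividing (Sen, replicative exhaustion), all in serum-containing medium and all lysed with cycloheximide, which arrests ribosomes on the message. Each state had 3 separately grown lysates from which both a Ribo-seq and a poly(A) RNA-seq library were made, so 12 libraries fell into 4 groups of 3. The labels name 2 IMR90 isolates without saying which lysate came from which, and the RNA-seq tables of the proliferating state carry a name tag resembling a solvent control that the labels do not mention, so any such effect cannot be told apart from the state.

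Positions are those of the GENCODE v44 annotation lifted to GRCh37. PLAU lies at chr10:75668935-75677254 on the plus strand, PLAUR at chr19:44150247-44174699 on the minus strand and PLAT at chr8:42032236-42065227 on the minus strand. SERPINE2 lies at chr2:224839762-224904035 (minus), SERPINB2 at chr18:61538926-61571122 (plus), SERPINF1 at chr17:1665323-1680859 (plus) and SERPINB6 at chr6:2948393-2972399 (minus). The long non-coding gene C10orf55 runs antisense to PLAU and shares 203 bases with its canonical exons. Whether counting used strand is not given in the sources used here, and C10orf55 received 492 to 810 RNA-seq reads per library, equal to 7.98% to 8.74% of the PLAU reads in proliferating and 7.60% to 8.36% in senescent libraries. SERPINB2 shares 165 exonic bases with a further protein-coding annotation on its own strand.

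Plasminogen is a circulating zymogen that 2 serine proteases convert into plasmin, a broad protease of fibrin and matrix. Urokinase (PLAU) does so mainly at the cell surface, bound to its lipid-anchored receptor PLAUR, and tissue-type activator (PLAT) mainly on fibrin. Serpins inhibit such proteases by trapping them in a covalent complex after cleavage of an exposed loop. SERPINE2 (protease nexin-1) blocks thrombin and both activators, SERPINB2 (PAI-2) is known chiefly as a urokinase inhibitor, SERPINB6 is an intracellular inhibitor of cathepsin G and related proteases, and SERPINF1 (PEDF) is a secreted serpin that lacks inhibitory activity and is known for restraining vessel growth. Activators and serpins are both well-known products of senescent fibroblasts.

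The sequence around the start codon is shown because ribosome loading per message is among the readouts compared below. The sequence of PLAT is not reported here, so the lines cover the other members. The lines give the 9 bases before the A of the start codon and the 6 bases from it, 5′ to 3′ on the coding strand of the canonical transcript, with the base at -3, the start codon and the base at 4 (counting the A as 1) in capitals.
PLAU, start codon at chr10:75671314-75671316: ctcgccAccATGAga
PLAUR, start codon at chr19:44174270-44174272: cctcgcGacATGGgt
SERPINE2, start codon at chr2:224866615-224866617: gaaggaAccATGAac
SERPINB2, start codon at chr18:61558679-61558681: attgaaAcaATGGag
SERPINF1, start codon at chr17:1670205-1670207: ggccccAggATGCag
SERPINB6, start codon at chr6:2959564-2959566: tctgccAtcATGGat

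These lines share a purine at -3, as did 89.5% of the 7220 genes that were tested for translational efficiency and had a usable start codon. PLAUR, SERPINB2 and SERPINB6 also carry G at 4, the combination found in 49.2% of those genes, whereas PLAU and SERPINE2 carry A and SERPINF1 carries C.

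AU-rich octamers in the 3′ UTR are shown next because messages of this system are textbook cases of AU-rich 3′ UTRs. The octamer TATTTATT, which contains the pentamer ATTTA, was searched on the coding strand only and occurred once each in the 3′ UTRs of PLAUR and SERPINB2. It is in capitals below.
PLAUR, chr19:44152753-44152780, minus strand: atattcatatTATTTATTttatacttac
SERPINB2, chr18:61570807-61570834, plus strand: tttactttgtTATTTATTattttatata

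The octamer was present in 5.06% of the 1541 3′ UTRs within 20% of the PLAUR length (311 bases) and in 8.48% of the 1864 within 20% of the SERPINB2 length (583 bases). It was not present in the annotated canonical 3′ UTRs of the other 5 genes.

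Depth set the precision of the Ribo-seq values. RNA-seq libraries held 7902427 to 14144455 reads over UTRs and CDS, while Ribo-seq libraries held 54421 to 1718521 CDS reads. Ribo-seq libraries of Pro lysate 1 (54421 CDS reads) and Sen lysate 2 (54708) stood apart from the other 4, which held 583798 to 1718521, and only 34.35% and 14.98% of the assigned reads of these shallow libraries lay in the CDS. Among the deeper libraries this share was 84.35% and 88.82% in Pro and lower in Sen, at 77.81% and 54.7%. In the shallow libraries 3 reads already equal 52.1 and 52.7 CPM, the reads of a gene scaled to library size. The state labels held in RNA-seq, where CDKN1A was higher (log2 fold change 1.60) and LMNB1 (-2.84) and MKI67 (-2.30) were lower in senescent cells. All 10 fibroblast markers were expressed, with summed levels of 28500 to 32100 CPM in proliferating and 27000 to 30300 CPM in senescent libraries. None of 5 epithelial markers averaged 1 CPM, 1 of 4 endothelial markers did (TEK, with PECAM1, VWF and CDH5 near 0; summed 54.4 to 62.1 and 93.7 to 105 CPM) and 1 of 5 leukocyte markers did (CD68, with PTPRC and CD3E at most 3 reads in any library; summed 19.3 to 21.3 and 32.1 to 35.4 CPM). The part of the higher endothelial and leukocyte sums in the results below was not tested.

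At the mRNA level, 6 of the 7 genes were higher and SERPINF1 was lower in senescent cells, and in each of the 7 the 3 senescent libraries did not overlap the 3 proliferating ones. Sizes differed widely, from 10.0-fold for SERPINE2 and 5.60-fold for PLAT to 1.19-fold for PLAU, while SERPINF1 was 27.9-fold lower. Calls are at a Benjamini-Hochberg adjusted p below 0.15 (edgeR quasi-likelihood test, n = 3 per state). Such calls were common: 73.5% of the 12836 tested genes were called, 36.5% higher and 37.0% lower, and 67.7% had groups that did not overlap. A call for each of 7 genes is therefore close to the background, and what sets the members apart from each other is size. By rank among the 12836 genes, SERPINE2 was number 94 from the top, PLAT 182 and SERPINB2 185, and SERPINF1 was number 20 from the bottom. The ranks, and the medians given next, are a description, since the members were chosen with earlier results known. The median log2 change was 0.59 over the members and -0.0058 over all genes tested. In bulk lysates, fewer cells expressing a gene and less RNA per cell cannot be told apart.

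**Figure D1:**
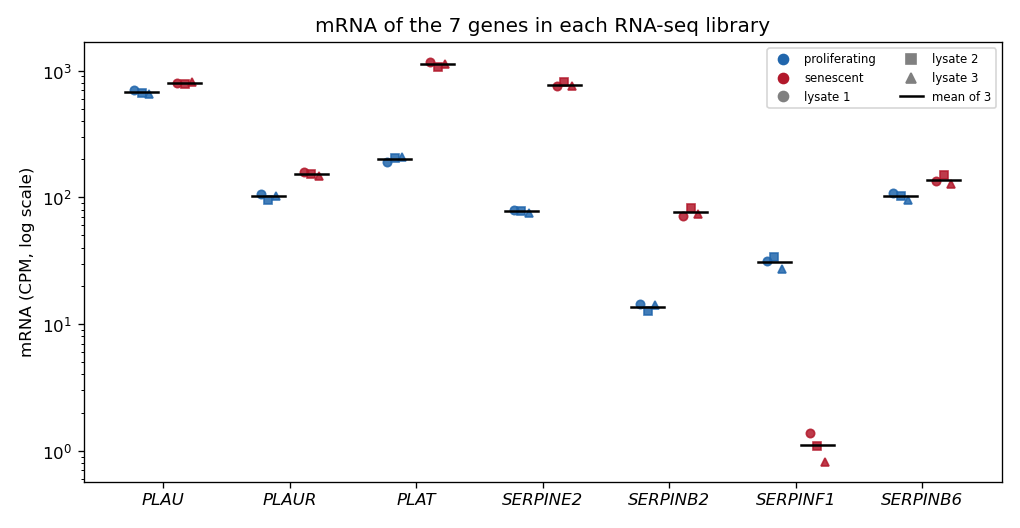
mRNA of each member in CPM (log axis), with a point per RNA-seq library (blue, proliferating; red, senescent; shape, lysate) and a black bar at the mean of 3. SERPINE2, PLAT and SERPINB2 show the widest upward gaps, SERPINF1 falls to about 1 CPM, and the gap for PLAU (671 against 798 CPM) is small but free of overlap.

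Among the activators, PLAU was the most abundant message in proliferating cells and moved little. Its mRNA was 701, 664 and 648 CPM in the Pro libraries and 804, 780.2 and 809 CPM in the Sen libraries. The lowest Sen library thus lay above the highest Pro library, and the fitted log2 change was 0.25 ± 0.07 (SE; 95% interval 0.10 to 0.39; edgeR adjusted p = 0.0034).

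PLAT behaved differently. Its mRNA was 189, 202 and 206 CPM in the Pro libraries and 1160.2, 1063 and 1127 CPM in the Sen libraries. The lowest Sen library lay far above the highest Pro library, with a log2 change of 2.48 ± 0.08 (SE) and an edgeR adjusted p of 4.57e-17.

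The receptor PLAUR, which concentrates urokinase at the membrane, rose moderately. Its mRNA was 107, 95.9 and 103 CPM in the Pro libraries and 158, 152.5 and 147 CPM in the Sen libraries, a log2 change of 0.59 ± 0.07 (SE; edgeR adjusted p = 2.74e-07). The receptor's change exceeded that of its ligand: PLAU CDS reads per kb were 3.94 ± 0.10 (SD, n = 3) times those of PLAUR in RNA-seq of proliferating cells and 3.01 ± 0.16 times in senescent cells, with no overlap. In footprints the same ratio was 3.70 ± 1.01 and 4.78 ± 3.10, and the ranges overlapped. The Sen mean was raised by Sen lysate 2 (8.36), which held 4 PLAUR footprints. In the deeper libraries the ratio was 4.283 and 4.278 in Pro and 3.07 and 2.93 in Sen, lower in Sen as in mRNA.

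Of the 4 serpins among the members, SERPINE2 rose the most. Its mRNA was 79.1, 77.5 and 75.5 CPM in the Pro libraries and 751, 814 and 761 CPM in the Sen libraries. The change was 3.33 ± 0.08 (SE) on the log2 scale (edgeR adjusted p = 5.21e-19), and spread within a state was small beside it.

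SERPINB2 started from a low level and rose by a similar factor to PLAT. Its mRNA was 14.5, 12.6 and 14.1 CPM in the Pro libraries and 71.5, 82.2 and 74.3 CPM in the Sen libraries (log2 change 2.48 ± 0.09 SE; edgeR adjusted p = 1.84e-15). SERPINB6, the intracellular member of the same clade, was 109, 103 and 95.8 CPM in the Pro and 134, 149 and 127 CPM in the Sen libraries. Its change of 0.42 ± 0.08 (SE; edgeR adjusted p = 6.79e-05) was the smallest among these serpins, although the groups stayed apart.

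SERPINF1 was the only member to fall. Its mRNA was 31.5, 33.6 and 27.1 CPM in the Pro libraries (258 to 393 reads) and 1.38, 1.10 and 0.82 CPM in the Sen libraries (9 to 15 reads). The log2 change was -4.80 ± 0.17 (SE; edgeR adjusted p = 7.75e-16), which corresponds to a 27.9-fold lower level with a 95% interval of the log2 change from -5.16 to -4.44. The gene passed the low-count filter only through the Pro libraries, where it was high, so these values are a description.

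Levels can be compared between genes only per length, here as CDS reads per kb of canonical CDS, scaled to the CDS reads of the library as CPM are. In proliferating cells PLAU stood first at 515 ± 24.2 (SD, n = 3), far above PLAUR (131 ± 9.13), PLAT (128 ± 10.8) and SERPINB6 (128 ± 9.52), whose ranges overlapped and which cannot be ordered. SERPINE2 (74.7 ± 4.63), SERPINF1 (35.4 ± 2.40) and SERPINB2 (15.6 ± 1.34) followed without overlap. In senescent cells the order changed: PLAT (700.3 ± 38.2) and SERPINE2 (697 ± 44.7) overlapped each other and both stood above PLAU (574 ± 3.49). Below them came PLAUR (191 ± 9.18) and SERPINB6 (163 ± 16.1), whose ranges touched, then SERPINB2 (81.7 ± 7.69) and SERPINF1 (1.11 ± 0.19).

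The balance of the activators accordingly turned over. Per kb of CDS, PLAT mRNA was 0.250 ± 0.031 (SD, n = 3) of PLAU mRNA in proliferating and 1.22 ± 0.06 in senescent lysates. The same ratio of footprints was 0.389 ± 0.022 and 1.78 ± 0.31, so in both layers PLAU led in all 3 Pro lysates and PLAT in all 3 Sen lysates. SERPINE2 mRNA per PLAT mRNA was 0.587 ± 0.089 and 0.9997 ± 0.12. In footprints this ratio was lower, at 0.385 ± 0.108 in proliferating and 0.617 ± 0.135 in senescent lysates. The highest Pro value (0.5096) lay just below the lowest Sen value (0.5104), and PLAT footprints exceeded those of SERPINE2 in every lysate. With 3 lysates per state an exact permutation test cannot reach p below 0.10, so these ratios are given with no test.

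In Ribo-seq, 6 members passed the filter on low counts and all 6 were called higher in senescent cells, while SERPINF1 had too few footprints to be tested. The background was 54.4% of 7521 genes called, 27.5% higher and 26.9% lower. The groups did not overlap for 3 of the 6 tested members (PLAT, SERPINE2 and SERPINB6), against 32.5% of all tested genes, and the overlaps of the others involved the 2 shallow libraries. Of the 7473 genes tested in both layers, 23.8% were called higher in both, and the 6 members are among them. SERPINE2 ranked 19, PLAT 36 and SERPINB2 96 from the top of the 7521 genes.

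**Figure D2:**
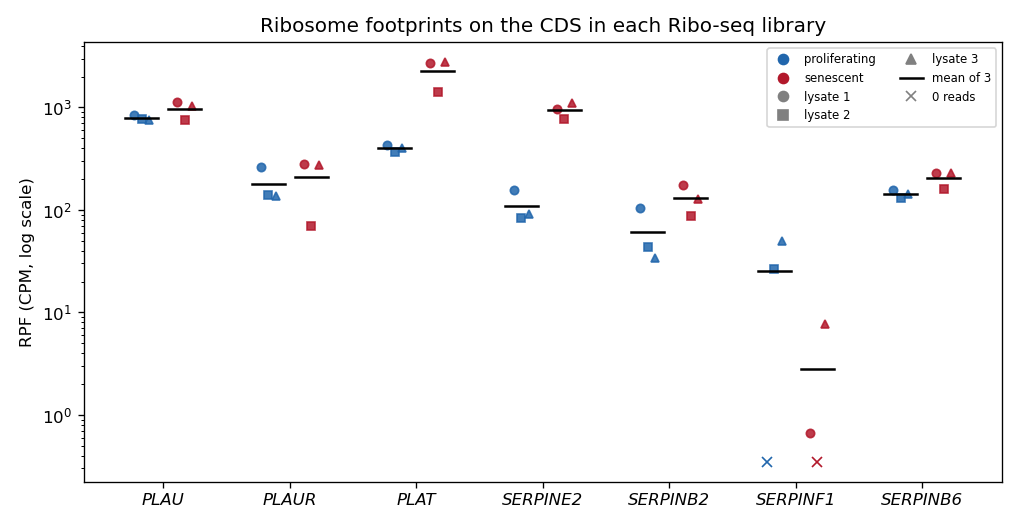
CDS footprints of each member in CPM (log axis), with a point per Ribo-seq library (blue, proliferating; red, senescent; shape, lysate), a black bar at the mean of 3 and a cross for a library with 0 reads. Pro lysate 1 (blue circle) and Sen lysate 2 (red square) are the shallow libraries, and the low senescent point of PLAUR (70.3 CPM) rests on 4 reads.

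PLAT footprints were 434, 367 and 399 CPM in the Pro libraries (25, 247 and 670 reads) and 2685, 1424 and 2751 CPM in the Sen libraries (4008, 81 and 1415 reads). The shallow Sen library was the lowest of its group yet still far above the highest Pro value. The fitted change was 6.15-fold (95% interval 4.71 to 8.03; edgeR adjusted p = 9.97e-20) and the log2 change was 2.62 with all libraries and 2.82 without both shallow lysates.

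SERPINE2 footprints were 156, 83.1 and 91.2 CPM in the Pro libraries (9, 56 and 153 reads) and 968, 774 and 1112 CPM in the Sen libraries (1445, 44 and 572 reads). Every Sen value lay far above every Pro value, the shallow libraries included. The fitted rise was 10.8-fold (95% interval 8.32 to 14.1; edgeR adjusted p = 2.55e-26), with a log2 change of 3.44 that became 3.55 without the shallow lysates.

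SERPINB2 footprints were 104, 43.0 and 34.0 CPM in the Pro libraries (6, 29 and 57 reads) and 177, 87.9 and 128 CPM in the Sen libraries (264, 5 and 66 reads). Groups overlapped only because the shallow Pro library (6 reads) lay above the shallow Sen library (5 reads). The fitted rise was 3.96-fold (95% interval 2.93 to 5.34; edgeR adjusted p = 3.48e-12) and the log2 change was 1.99, or 2.11 without both.

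PLAUR footprints were 260.3, 139.5 and 136 CPM in the Pro libraries (15, 94 and 228 reads) and 283, 70.3 and 272 CPM in the Sen libraries (423, 4 and 140 reads). The shallow libraries sat at opposite ends of their groups, which made the unweighted means close, at 179 and 209 CPM. The edgeR fit, which gives deep libraries more weight, put the log2 change at 0.87 ± 0.18 (SE; adjusted p = 5.36e-05), and at 1.02 without both shallow lysates, but DESeq2 gave 0.38 with an adjusted p of 0.79.

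SERPINB6 footprints were 156, 131 and 142 CPM in the Pro and 227, 158 and 229 CPM in the Sen libraries. The margin between the groups was narrow, since the shallow libraries (9 reads each) bordered each other. Its log2 change was 0.69 ± 0.17 (SE; edgeR adjusted p = 0.00056), and 0.73 without both shallow lysates. DESeq2 gave 0.62 and an adjusted p of 0.19.

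PLAU footprints were 850.3, 769 and 748 CPM in the Pro libraries (49, 518 and 1255 reads) and 1117.5, 756 and 1024.5 CPM in the Sen libraries (1668, 43 and 527 reads). The shallow Sen library fell among the Pro values, and the deeper Sen libraries lay above all of them. The log2 change of 0.39 ± 0.17 (SE) had an edgeR adjusted p of 0.048, and was 0.51 (adjusted p = 0.00079) without both shallow lysates. This call was lost without Pro replicate 2 (log2 change 0.35), Pro replicate 3 (0.34), Sen replicate 1 (0.28) or Sen replicate 3 (0.36), with DESeq2 (0.35), with at least 1 read (0.37) and with the replicate block (0.30), so 6 of 13 alternatives called it.

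SERPINF1 footprints numbered 0, 18 and 84 reads in the Pro libraries (0, 26.7 and 50.1 CPM) and 1, 0 and 4 reads in the Sen libraries (0.67, 0 and 7.78 CPM). Both zeros came from the shallow libraries, where 3 reads would be worth 52.1 and 52.7 CPM, so a level of the size seen in the other Pro libraries was not detectable there. In the other 4 libraries both Pro values lay above both Sen values. Fitted on those 4 libraries, the log2 change was -3.99. The gene passed the filter there only through the Pro libraries, where it was high, so this value is a description.

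**Figure D3:**
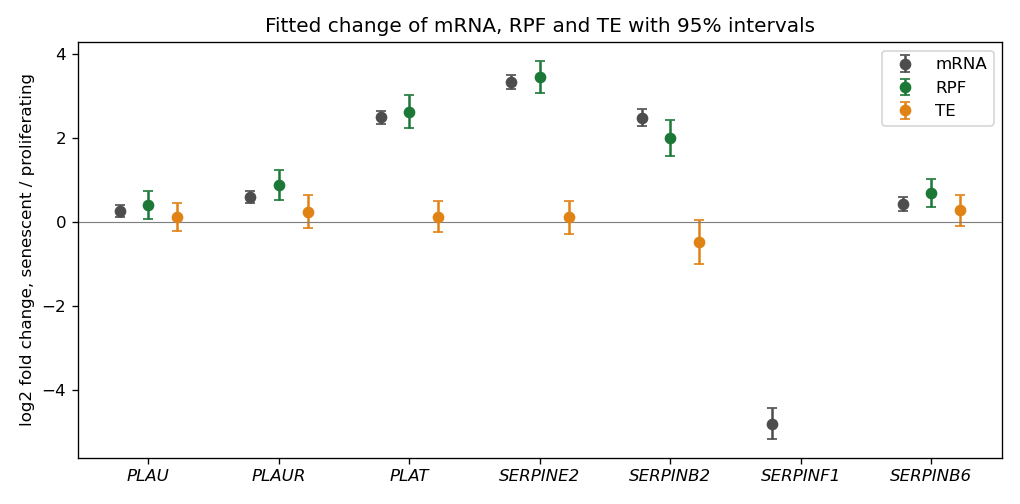
Fitted log2 fold change (senescent over proliferating) of mRNA (grey), RPF (green) and translational efficiency (TE, orange), with bars for the 95% interval. The mRNA and RPF intervals of each gene overlap, all 6 TE intervals include 0, and SERPINF1 has an mRNA value only.

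Translational efficiency (TE) compares the footprints of a gene with its mRNA in the same lysate, and the tested quantity was whether the state changed the one more than the other. None of the 6 tested members was called at an adjusted p below 0.15 by the edgeR interaction test, none had an unadjusted interval that excluded 0, and none had groups free of overlap. Over all 7473 genes, 9.37% were called and 16.2% had groups free of overlap. The median log2 change was 0.12 over the 6 members and -0.014 over all genes. A p that misses the threshold leaves room for modest changes, which the intervals bound as follows.

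For PLAT the fitted TE change was 1.09-fold (95% interval 0.84 to 1.41) and for SERPINE2 it was 1.08-fold (0.82 to 1.42). The interval thus stayed under 1.5-fold in both genes, whose mRNA changed by 5.60-fold and 10.0-fold. PLAU gave 1.08-fold (0.85 to 1.37), PLAUR 1.18-fold (0.90 to 1.54) and SERPINB6 1.21-fold (0.94 to 1.56). Without both shallow lysates PLAT and PLAUR passed the threshold, with log2 changes of 0.34 (adjusted p = 0.12) and 0.40 (adjusted p = 0.13).

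SERPINB2 was the only tested member whose fitted TE went down. Its log2 TE, the log2 ratio of RPF to mRNA CPM, was 2.95, 1.80 and 1.27 in the Pro lysates and 1.31, 0.23 and 0.80 in the Sen lysates. The highest Sen value lay just above the lowest Pro value. The fitted log2 change was -0.49 ± 0.26 (SE; 95% interval -1.01 to 0.03; edgeR adjusted p = 0.31), and without both shallow lysates it was -0.34 (adjusted p = 0.47). With the replicate block it was -0.83 and called (adjusted p = 0.10), and it was -0.89 without Pro replicate 3 and -0.86 without Sen replicate 1, neither called. Its footprints rose 3.96-fold beside an mRNA rise of 5.57-fold.

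For PLAUR the log2 TE was 1.34, 0.55 and 0.40 in the Pro and 0.84, -0.95 and 0.89 in the Sen lysates. In the deeper lysates both Sen values were above both Pro values, and the shallow lysates reversed that order. PLAT ran from 0.86 to 1.23 in the Pro and from 0.43 to 1.29 in the Sen lysates, and SERPINE2 from 0.11 to 1.06 and from -0.06 to 0.55. In both genes the highest Pro value came from the shallow Pro lysate 1 and the lowest Sen value from the shallow Sen lysate 2. PLAU ran from 0.21 to 0.29 and from -0.03 to 0.48, and SERPINB6 from 0.35 to 0.60 and from 0.16 to 0.86. SERPINF1 scattered from -1.86 to 3.33, with no more than 4 footprints in any Sen lysate, and supports no statement on TE.

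**Figure D4:**
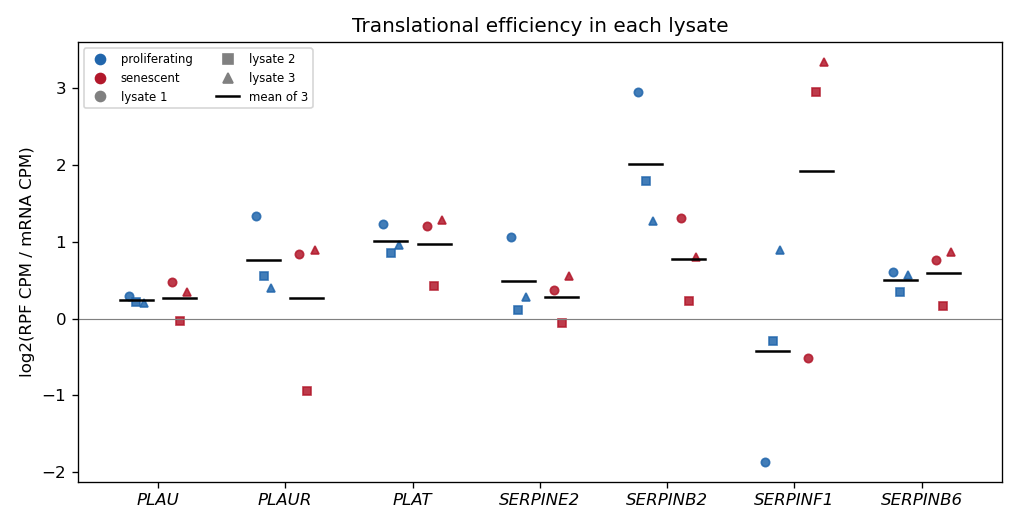
Log2 ratio of RPF to mRNA CPM, with 0.5 added to each count, in each lysate (blue, proliferating; red, senescent; shape, lysate; black bar, mean of 3). SERPINB2 has the highest proliferating mean (points from 1.27 to 2.95, the top one on 6 footprints), and the points of Pro lysate 1 and Sen lysate 2 lie at the edges for most genes.

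Where the reads fell within a message was not used to choose the members. Nearly all footprints lay in the CDS, as they do for translated messages: in the 4 deeper Ribo-seq libraries the CDS held 96.6% to 98.9% of PLAT footprints and 98.99% to 99.8% of PLAU footprints. Pro lysate 1 gave PLAT a 3′ UTR share of 19.4%, which is 6 of 31 reads. In Sen lysate 1, PLAT had 63 of 4149 footprints in the 5′ UTR, or 1.52% (Wilson 95% interval 1.19% to 1.94%), and in Sen lysate 3 it had 4 of 1431, or 0.28% (0.11% to 0.72%). The shares were 0.78% (0.22% to 2.81%) in Pro lysate 2 and 1.31% (0.69% to 2.47%) in Pro lysate 3. Sen lysates 1 and 3 thus differed from each other beyond counting error, and both Pro shares lay between them. SERPINE2 had 12 of 1458 (0.82%) in Sen lysate 1 and none of 153 in Pro lysate 3, for which the interval reaches 2.45%. Intervals cover counting error only, since reads without molecular identifiers are not independent molecules.

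In RNA-seq the regions divided the members. PLAU placed 28.6% to 30.5% of its reads in the 3′ UTR in proliferating and 29.8% to 32.1% in senescent libraries, PLAT 19.7% to 24.9% and 20.8% to 24.4%, and SERPINE2 15.0% to 20.3% and 15.6% to 18.5%. These ranges overlapped between the states for each of the 3 genes. SERPINB6 had 8 of its Pro and 14 of its Sen reads there in all, and SERPINF1 had 4 in Pro. Their canonical 3′ UTRs are short (139 and 119 bases), and that of SERPINB2, 583 bases long, held only 4 reads in Pro and 80 in Sen. Per base, the 3′ UTR of SERPINB2 was covered at 0.023 of the CDS level in Pro and 0.075 in Sen. Coverage per base was likewise low for SERPINB6 (0.024 and 0.028) and for SERPINF1 in Pro (0.0496), against 0.67 and 0.71 for PLAU. The SERPINF1 value in Sen (0.68) rested on 2 reads. The canonical transcripts used for these lengths may differ from the annotation behind the deposited tables, which is not given in the sources used here.

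Other serpins of the tables, 31 symbols that are no members, served as a first comparison list. At the mRNA level 12 had enough reads to be tested and all 12 were called, 9 higher and 3 lower, with a median log2 change of 0.86, where 73.5% of all tested genes were called. Of the 9 higher, SERPINI1, SERPINA9 and SERPIND1 passed the low-count filter only through the Sen libraries, where they were high. The counts are therefore a description. Another 19 were too low to be tested. In Ribo-seq 6 were tested and 5 were called, all higher (median log2 change 0.96), beside 54.4% of all genes. In TE 6 were tested and 2 were called, 1 in each direction, beside 9.37% of all genes.

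SERPING1, the C1 inhibitor, had an RPF log2 change of 1.10, SERPINB8 of 0.93 and SERPINB1, a neutrophil elastase inhibitor, of 0.62. SERPINB7 mRNA rose by a log2 change of 2.07. The neuronal activator inhibitor SERPINI1 was 0.61 to 0.84 CPM in Pro and 6.91 to 10.2 CPM in Sen, and SERPINA3 was 1.10 to 2.05 CPM and 2.28 to 3.83 CPM. Low messages appeared for SERPINA9 (at most 1 read per Pro library, 4.29 to 5.42 CPM in Sen) and SERPIND1 (0 to 0.19 and 1.61 to 1.70 CPM).

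Lower in senescent cells were SERPINB9, the granzyme B inhibitor (mRNA log2 change -1.53), and SERPINH1 (HSP47), the collagen chaperone of the endoplasmic reticulum (-0.89). SERPINH1 mRNA was 1315 to 1442 CPM in Pro and 734 to 790.4 CPM in Sen, but its footprints were 1822 to 2369 and 1714 to 1888 CPM with an RPF log2 change of -0.24 (adjusted p = 0.27). Its TE change was 0.66 (edgeR adjusted p = 0.020), a call lost without Pro replicate 2 (adjusted p = 0.28) or Sen replicate 3 (0.29). SERPINB7 went the other way in TE (-1.10; adjusted p = 0.053), on 1 to 74 footprints per library, and was lost without Pro replicate 2 (0.30), Sen replicate 1 (0.18) or Sen replicate 3 (0.23).

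The wider plasminogen pathway list held 44 genes, some of which, such as SERPINI1, are also among the other serpins. At the mRNA level 33 were tested and 30 called, 20 higher and 10 lower, with a median log2 change of 0.30, beside 73.5% of all genes called. Some genes of this list passed the low-count filter only through the state where they were high. Among them were SERPINI1, MMP3, THBD and PZP in mRNA and A2M in RPF, so the counts are a description. In Ribo-seq 26 were tested and 17 called, 11 higher and 6 lower (median 0.18), beside 54.4% of all genes. In TE none of 26 was called by edgeR (median -0.0094), beside 9.37% of all genes, but 6 were without both shallow lysates, 5 without Pro replicate 1 and 5 with library totals. Plasminogen itself (PLG) was too low to be tested. Of the 24 receptors and cofactors, 13 were higher and 7 lower in mRNA among 23 tested, and 8 higher and 5 lower in RPF among 21. Of the 8 further inhibitors 4 were higher and 1 lower among 5 tested in mRNA. Of the 12 protease and substrate genes 3 were higher and 2 lower among 5 tested in mRNA, and 1 was higher and 1 lower among 3 in RPF.

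Several of these genes handle the members' proteins, and each change named here and in the next paragraph passed the edgeR threshold unless said otherwise. LRP1, the endocytic receptor that clears activator and serpin complexes, rose in both layers (log2 change 0.62 in mRNA, 0.63 in RPF). VLDLR, a relative with overlapping ligands, fell in both (-0.95 and -1.08), although its RPF groups overlapped. ITGB5, an integrin subunit that with ITGAV binds vitronectin, rose by 1.88 in mRNA and 2.04 in RPF. S100A10, the annexin A2 partner that binds plasminogen and PLAT, was slightly lower in mRNA (-0.15) and lower in RPF (-0.54). KRT8, another plasminogen-binding protein, fell in both layers (-0.57 and -0.81), as did ENO1 in mRNA alone (-0.31), where the RPF value was -0.07 and not called.

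A2M, a broad protease trap, was 3.17 to 4.65 CPM in Pro and 21.8 to 23.6 CPM in Sen in mRNA (log2 change 2.43) and rose by 2.58 in RPF. Tissue factor F3, the trigger of coagulation, rose by 1.52 in mRNA and 1.48 in RPF. TFPI2, which inhibits plasmin and factor VIIa complexes, was lower in mRNA (-0.45), and so was the matrix protein VTN (-0.35). In RPF both were called lower as well (-0.49 and -0.92), with groups that overlapped. MMP3, which plasmin can activate, was 0.49 to 0.85 CPM in Pro and 3.62 to 7.76 CPM in Sen. THBD (0.09 to 0.61 and 1.06 to 1.92 CPM) and PZP (0 to 0.37 and 1.06 to 1.10 CPM) were also called higher at levels of few reads.

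**Figure D5:**
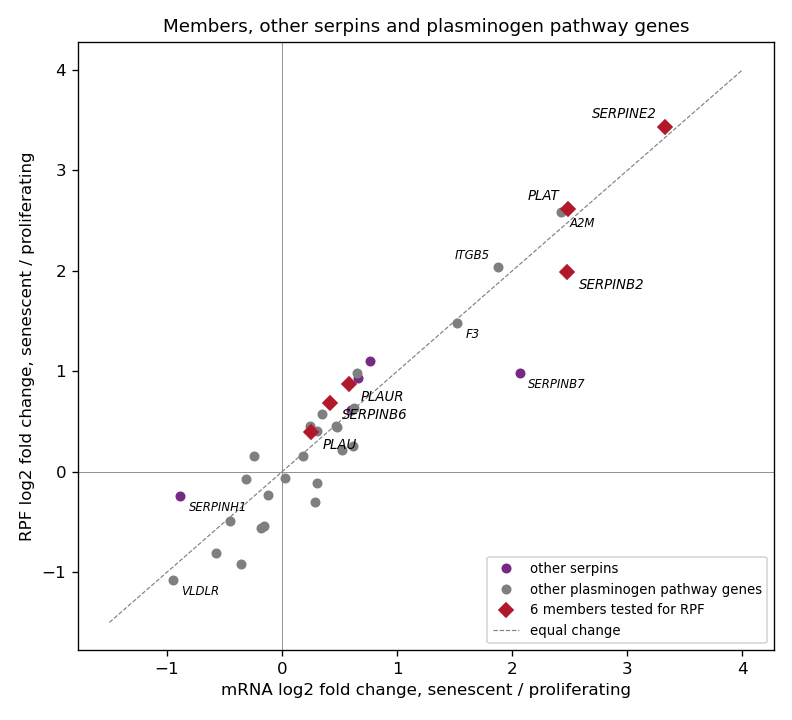
RPF against mRNA log2 fold change for the 6 members tested in Ribo-seq (red diamonds), other serpins (purple) and further plasminogen pathway genes (grey), with a dashed line of equal change. SERPINE2, PLAT and SERPINB2 lie at the upper right, SERPINB7 lies below the line and SERPINH1 above it.

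Profiles over the 12 libraries were compared by Euclidean distance between log2 CPM values centred within library type, among genes with at least 100 mean footprints (1498 for members that qualify themselves, 1499 for SERPINB2). Distances are a description, since all genes share the same libraries and their depth. PLAT lay nearest to TGM2 (distance 0.53) and TGFBR2 (0.67), against a median distance of 4.27 to all genes. The nearest genes of SERPINE2 were IGFBP7 (0.94) and IGFBP3 (0.96; median 5.59). SERPINB2, whose own footprints averaged 71.2 reads, came closest to TRPV2 (1.10) and ITGB5 (1.17; median 3.70). PLAU had NANS (0.27) and EMC1 (0.30; median 1.13) beside it, PLAUR had ELOVL1 (0.42) and PRDX5 (0.66; median 2.05), and SERPINB6 had EFEMP2 (0.28) and GAPDH (0.29; median 1.26).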

How the data were processed

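Ribosome footprints (28 to 32 nt) and poly(A) RNA were sequenced from 6 IMR90 lysates, 3 per state. The submitters' processing notes name cutadapt 1.18, Bowtie 1.0.1, SAMtools 1.8 and DESeq2 1.22.2; genome build, annotation, strand and multi-mapping rule of these tables are not given in the sources used here. The deposited values are estimated counts of reads per gene and region, some fractional, not normalized by the authors; whole counts had been assumed, so sums were rounded. mRNA counts were 5′ UTR, CDS and 3′ UTR reads, RPF counts CDS reads.

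edgeR 4.0.16 (R 4.3.3; filterByExpr, TMM, quasi-likelihood, two-sided) was fitted over all genes: state in 6 RNA-seq libraries, state in 6 Ribo-seq libraries, and for TE the interaction of library type and state in 12 libraries with lysate as block, because the protocol drew both libraries from each lysate. The Benjamini-Hochberg threshold was 0.15, the rate of the published methods. The fits were also run on simulated counts, drawn independently per library with a spread set by hand, which checks the code and not the calls in these data. CPM use TMM library sizes, TE per lysate adds 0.5 to each count. Alternatives were DESeq2 1.42.0, RLE factors, library totals, no low-count filter (at least 1 read), leaving out lysates, replicate block, no lysate block, RNA-seq CDS reads alone, all Ribo-seq regions and a 0.05 threshold.

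Members and lists were chosen with earlier results of these data known. Named genes are the members, the 2 nearest profiles of each, CDKN1A, LMNB1 and MKI67, and of each list, per layer, up to 5 highest and 5 lowest log2 changes among called genes without overlap, plus list genes called in TE; 1 list gene is not reported here by name. Sequences and positions come from GENCODE v44 on GRCh37, not necessarily the authors' annotation. RNA-seq libraries held 7902427 to 14144455 reads over UTRs and CDS, and Ribo-seq libraries 54421 to 1718521 CDS reads. Values of low genes in the 2 shallow Ribo-seq libraries are therefore coarse.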

Additional observations from a re-analysis of the deposited data

How the results depend on the processing

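All 7 members were called in mRNA under each of the alternatives run, with each direction kept. In RPF, PLAT, SERPINE2 and SERPINB2 were called under each alternative; DESeq2 called 3 members, and leaving out a replicate gave 5 to 7. In TE, leaving out both shallow lysates called 2 members (PLAT and PLAUR), leaving out single replicates called 0, and the replicate block called 1, SERPINB2 (-0.83, adjusted p = 0.10). Fitted TE changes near 0 turned sign for PLAUR with DESeq2 (-0.099), for PLAT on leaving out a replicate (-0.041 to 0.33; below 0 without Sen replicate 3) and for SERPINE2 (-0.054 to 0.22; below 0 without Pro replicate 2, -0.054, and without Sen replicate 3, -0.026). Over all genes, RPF calls numbered 4088, against 1164 with DESeq2, 2336 with the replicate block and 2681 to 4556 without single replicates (2681 without Sen replicate 1). TE calls numbered 700 (1390 at an unadjusted p under 0.05), against 79 with DESeq2, 231 at the 0.05 threshold, 436 with at least 1 read, 1196 without both shallow lysates, 1342 with no lysate block, 320 with all Ribo-seq regions and 134 to 1155 without single replicates (1155 without Pro replicate 1, 134 without Pro replicate 2, 179 without Pro replicate 3, 178 without Sen replicate 1, 160 without Sen replicate 3). The cause was not tested. Library totals moved the median log2 change to -0.11 in mRNA and -0.14 in RPF, where 1650 of 4225 calls were higher against 2066 of 4088; no member turned direction in those layers, and PLAU mRNA was then 0.14. Replicate numbers are shared between the states, and the labels do not say whether same-numbered lysates were paired. Deviations of same-numbered Pro and Sen libraries correlated at 0.107, -0.21 and 0.248 in mRNA and 0.0276, 0.0279 and 0.0106 in RPF. In mRNA 2 of 6 and in RPF 6 of 6 libraries correlated best with their own number, a hint from the data rather than the design. The replicate block also lost PLAU in RPF (0.30, adjusted p = 0.29). Depth limits SERPINF1 in RPF and every TE value.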
